A study of Morone chrysops with 54 samples.

Results

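Livers of juvenile white bass (Morone chrysops) fed Diet 6 were compared directly with livers of fish fed Diet 4, the diets without fish meal in which Pro-Cision or poultry by-product meal (PBM) took its place. Diet 6 (Pro-Cision + SBM) held a commercial protein blend with soybean meal (SBM), and Diet 4 (PBM + SBM) held PBM, also with soybean meal. The comparison used 18 of the 54 libraries of the study, 9 per diet, each made from the liver of 1 fish after 60 days of feeding. Each diet was fed in 3 tanks, of which the study sampled 3 fish each. By the study's formulation, Diet 6 also held less soybean meal and more wheat than Diet 4 and no canola oil, so that effects of the protein source and of these other ingredients cannot be told apart. The other diets, used below as a description only, were Diet 1 (30%FM-control), Diet 2 (15%FM + SBM), Diet 3 (15%FM + PBM + SBM) and Diet 5 (all-plant).

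In mammals the liver sets the iron level of the blood through hepcidin, a peptide hormone made by hepatocytes. There hepcidin binds ferroportin (solute carrier family 40 member 1), the protein by which cells export iron, and causes the breakdown of that protein. The study discusses fish hepcidins as antimicrobial peptides. Against its fish meal control, it also reported gene sets of iron and transition metal ion transport as lower with the Pro-Cision diet. It reported hepcidin as higher with that diet than with the control, by sequencing and by quantitative PCR. By quantitative PCR it gave a smaller rise with the PBM diet without fish meal. Transferrin receptor protein 1 takes up iron bound to transferrin, ceruloplasmin is a copper-carrying plasma protein that oxidises exported iron, and ferritin stores iron inside cells. The liver also makes most plasma proteins, bile acids and cholesterol, and it breaks down amino acids from the diet.

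The 18 libraries held 5964761 to 16228574 counts with Diet 6 (median 12539625) and 7191199 to 12877973 counts with Diet 4 (median 11378553). The difference in mean totals did not pass (two-sided exact permutation test, n = 9 per diet, p = 0.122), although without Diet 6 replicate 1, the smallest library, p was 0.00991. The 20 most abundant contigs took 34.6 ± 1.95% of all counts with Diet 6 and 40.5 ± 2.73% with Diet 4 (SD, n = 9 each, exact permutation p = 0.000123, adjusted p = 0.00074 over 6 library measures). Levels are therefore given as CPM, counts scaled to the library total times a TMM factor, which allows for such a difference in composition. CPM stands for counts per 1e+06. The TMM factor itself averaged 1.10 ± 0.0893 with Diet 6 and 0.918 ± 0.0975 with Diet 4 (exact permutation p = 0.00173, adjusted p = 0.00518). With library totals alone the median log2 fold change of all contigs was 0.27 rather than 0.01, and 255 contigs passed the test, all but 10 of them higher with Diet 6.

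A contig was called where the Benjamini-Hochberg adjusted p of the quasi-likelihood F-test of edgeR was under 0.05 and the change was larger than 1.5-fold. Of 9957 contigs tested, 21 (0.211%) were called, of which 13 (0.131%) were higher and 8 (0.0803%) were lower with Diet 6 than with Diet 4. Before adjustment, p was under 0.05 and the fold cutoff was met for 336 (3.37%), and DESeq2 called 72, of which 19 were among the 21. All 9 fish of one diet lay outside the range of the other for 5 contigs (0.0502% of those tested), and all 5 of these were called. Names were available for 18 of the 21. Every name comes from lists of contigs that the study had called against Diet 1 on libraries of this series, so that the named contigs are not an independent choice.

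The contigs with the smallest p were those of hepcidin and of multidrug resistance-associated protein 9. Of the 12 members of the iron and haem list, 4 were called. Of the 970 named contigs tested, from which that list was drawn, 18 were called, and of all 9957 tested 21 (0.211%). Hepcidin was higher with Diet 6, whereas ferroportin, transferrin receptor protein 1 and ceruloplasmin were lower. Hepcidin lay at 223 to 1027 CPM with Diet 6 (median 724), against 22.3 to 222 CPM with Diet 4 (median 61.2). The groups did not overlap, although the lowest Diet 6 fish and the highest Diet 4 fish nearly met. On average hepcidin was 8.28-fold higher with Diet 6 (log2 fold change 3.05, SE 0.435, edgeR adjusted p = 0.0037). The file labels also carry a T tag, shared by 3 fish each, and by tag the means were 641, 816 and 594 CPM with Diet 6, against 118, 101 and 29.8 CPM with Diet 4. The sources do not say what this tag is, and if it is the tank, each of the 3 Diet 6 tanks lay above each of the 3 Diet 4 tanks. Means of the 3 and 3 tags were likewise apart for 1326 (13.3%) of the contigs tested, and for each of the 21 called. In liver tissue as a whole, a change in the number of cells of a type and a change in RNA per cell cannot be told apart.

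A separate contig, hepcidin 2 variant 2, pointed the other way at a far lower level. It lay at 0.313 to 8.33 CPM with Diet 6 (median 1.18), against 1.95 to 20.4 CPM with Diet 4 (median 6.69), and 8 of 9 Diet 6 fish were below the Diet 4 median. Its log2 fold change of -1.89 did not pass the test (SE 0.554, edgeR adjusted p = 0.217). Reads of such related contigs can be split between them, so their CPM were also summed. The sum lay at 224 to 1028 CPM with Diet 6 (median 732), against 29.3 to 224 CPM with Diet 4 (median 63.7), so that the lowest Diet 6 fish and the highest Diet 4 fish met, with a log2 difference of 3.14 (two-sided exact permutation test, n = 9 per diet, p = 8.23e-05). Most of the sum is the hepcidin contig, already singled out by its small p on these libraries, so this unadjusted p is not separate support.

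Ferroportin, the iron exporter, lay at 382 to 1670 CPM with Diet 6 (median 858), against 1827 to 3856 CPM with Diet 4 (median 2836). Every Diet 6 fish was below every Diet 4 fish, and the mean level was 0.367 times that with Diet 4 (log2 fold change -1.45, SE 0.242, edgeR adjusted p = 0.0134). Averages by T tag were 1201, 1194 and 666 CPM with Diet 6, against 3010, 2814 and 2557 CPM with Diet 4.

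Transferrin receptor protein 1, the receptor for transferrin-bound iron, lay at 52.7 to 153 CPM with Diet 6 (median 113), against 128 to 288 CPM with Diet 4 (median 234). All 9 Diet 6 fish were below the Diet 4 median and 6 of them below every Diet 4 fish. Its level was 0.506 times that with Diet 4 (log2 fold change -0.98, SE 0.175, edgeR adjusted p = 0.017). Ceruloplasmin, the plasma ferroxidase, lay at 1016 to 1889 CPM with Diet 6 (median 1523), against 1581 to 3264 CPM with Diet 4 (median 2723). The groups overlapped, with 5 Diet 6 fish below every Diet 4 fish (log2 fold change -0.82, SE 0.162, edgeR adjusted p = 0.0327). Its call was lost in many alternatives, among them 11 of the 18 fits that left out 1 fish, counts summed per T tag (edgeR adjusted p = 0.413), no filter on low counts (adjusted p = 0.0611) and library totals, where the log2 fold change of -0.55 was under the fold cutoff.

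**Figure D1:**
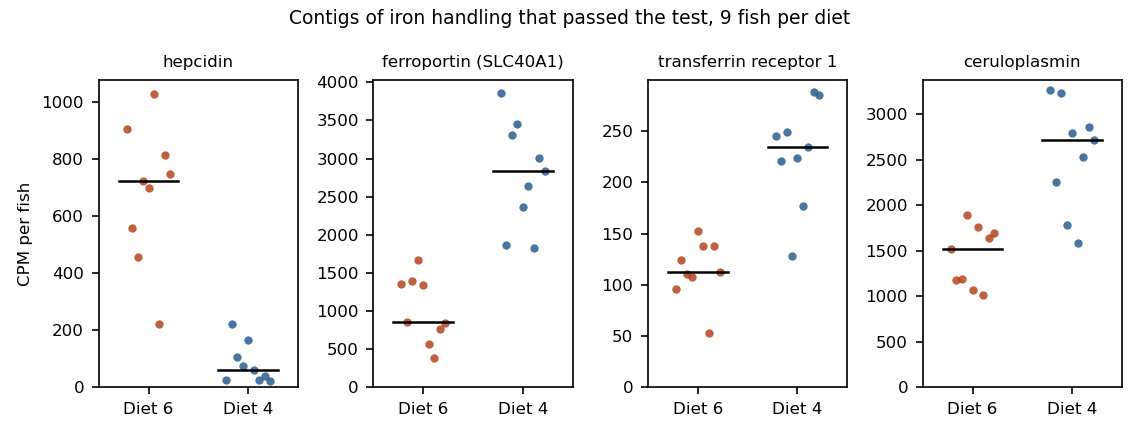
Level of 4 contigs of iron handling in each fish, in CPM on linear axes from 0, with Diet 6 at the left and Diet 4 at the right of each panel, points for the 9 fish of a diet and a line at the median. Hepcidin lay at 223 to 1027 CPM with Diet 6, above the 22.3 to 222 CPM with Diet 4, and the other 3 contigs lay lower with Diet 6, ferroportin without overlap.

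The remaining members of the iron and haem list did not pass the test, and those named here were chosen after their values were seen. Ferritin, middle subunit, a subunit of the iron store, had medians of 2297 CPM with Diet 6 and 2001 CPM with Diet 4 (log2 fold change 0.31, edgeR adjusted p = 0.78). Erythroferrone-like, named for a hormone of red cell precursors that lowers hepcidin in mammals, had medians of 5.18 and 10.7 CPM with Diets 6 and 4 (log2 fold change -0.56, adjusted p = 0.576). Haptoglobin-like, which binds free haemoglobin, had medians of 251 and 451 CPM with Diets 6 and 4 (log2 fold change -0.95, adjusted p = 0.315). Over the list, 1 member was called higher and 3 lower, 4 members were higher and 8 lower whatever the test, and the median log2 fold change was -0.56, against 0.01 over all contigs tested. DESeq2 called 5 of the 12 members, as did edgeR with all diets in 1 fit.

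Within a diet, no relation between the levels of the 4 called iron contigs passed after adjustment. Over 6 pairs in each diet, which gives 12 relations on log2 CPM with n = 9 fish each, none of the adjusted p-values of Pearson's r fell under 0.05, the lowest being 0.077, or 0.26 for Spearman's rho. Hepcidin and transferrin receptor protein 1 had r = 0.781 (exact permutation p = 0.0437, adjusted p = 0.175) and rho = 0.30 (exact permutation p = 0.437) with Diet 6, but r = -0.078 without the 2 fish farthest from the median of hepcidin, so that the relation rests on those fish. Transferrin receptor protein 1 and ceruloplasmin had r = 0.794 (exact permutation p = 0.0128, adjusted p = 0.077) and rho = 0.75 (exact permutation p = 0.0255) with Diet 4, and r = 0.349 without 2 fish in the same way. Hepcidin and ceruloplasmin had r = 0.735 (exact permutation p = 0.00991) and Spearman's rho = 0.70 (exact permutation p = 0.0432) with Diet 6, and r = 0.581 without the 2 fish farthest from the median of hepcidin. With Diet 4 the same pair had r = -0.20 (exact permutation p = 0.60) and rho = -0.233 (exact permutation p = 0.552).

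Fibroblast growth factor 19, known in mammals as a hormone of the intestine that lowers bile acid synthesis in the liver, had the largest fall of the called contigs but very few counts. It lay at 0 to 0.591 CPM with Diet 6 (median 0.159), against 0.144 to 14.9 CPM with Diet 4 (median 2.07). All 9 Diet 6 fish were below the Diet 4 median, 2 of them at 0 counts, and 4 were below every Diet 4 fish. In all, 36 counts were assigned to it with Diet 6 and 503 with Diet 4, and the fitted log2 fold change was -4.34 (SE 0.767, edgeR adjusted p = 0.017). Of the Diet 4 level, most came from the 3 fish of T tag T1, which averaged 12 CPM, against 1.74 and 1.30 CPM in the fish of T14 and T18. Without the fish of T1 the log2 fold change was -2.65 (edgeR adjusted p = 0.386), and limma with voom, with T tags as blocks, gave -3.56 (adjusted p = 0.31). Fibroblast growth factor receptor 4, its receptor on hepatocytes in mammals, had medians of 4.18 CPM with Diet 6 and 11.9 CPM with Diet 4 (log2 fold change -0.89, edgeR adjusted p = 0.462), and fibroblast growth factor receptor 4-like had medians of 7.27 and 20 CPM with Diets 6 and 4 (log2 fold change -1.15, adjusted p = 0.252). These receptors were chosen after their values were seen.

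Among the contigs that were higher with Diet 6, several encode proteins of transport, transcription and signalling. Multidrug resistance-associated protein 9, a member of the ABC transporter family, lay at 3.47 to 13.5 CPM with Diet 6 (median 5.77), against 0.365 to 2.52 CPM with Diet 4 (median 0.764). No fish overlapped, and the level was 6.49-fold higher with Diet 6 (log2 fold change 2.7, SE 0.383, edgeR adjusted p = 0.0037). Nuclear receptor-interacting protein 2, a protein that binds nuclear hormone receptors, lay at 6.73 to 56.5 CPM with Diet 6 (median 37.0), against 4.01 to 12.4 CPM with Diet 4 (median 8.64). The spread was wide with Diet 6, where 7 fish were above every Diet 4 fish and the other 2 had 6.73 and 11.7 CPM. Its level was 3.91-fold higher (log2 fold change 1.97, SE 0.321, edgeR adjusted p = 0.0124).

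Nuclear receptor subfamily 2 group F member 6, an orphan nuclear receptor of the COUP family, lay at 18 to 33.8 CPM with Diet 6 (median 26.7), against 8.10 to 16 CPM with Diet 4 (median 12.8). These ranges did not overlap, and the difference was 1.95-fold (log2 fold change 0.97, SE 0.146, edgeR adjusted p = 0.00568). Mothers against decapentaplegic homolog 1 (SMAD1), which carries signals of bone morphogenetic proteins to the nucleus and in mammals lies upstream of hepcidin, lay at 7.16 to 10 CPM with Diet 6 (median 8.00), against 3.06 to 6.20 CPM with Diet 4 (median 5.13). Again no fish overlapped (log2 fold change 0.79, SE 0.147, edgeR adjusted p = 0.0194), but without Diet 6 replicate 3 it no longer passed. Serine/threonine-protein kinase SBK1-like, a protein kinase, lay at 3.04 to 7.11 CPM with Diet 6 (median 6.18), against 0.856 to 3.41 CPM with Diet 4 (median 2.72), with 8 Diet 6 fish above every Diet 4 fish (log2 fold change 1.21, SE 0.234, edgeR adjusted p = 0.0295).

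**Figure D2:**
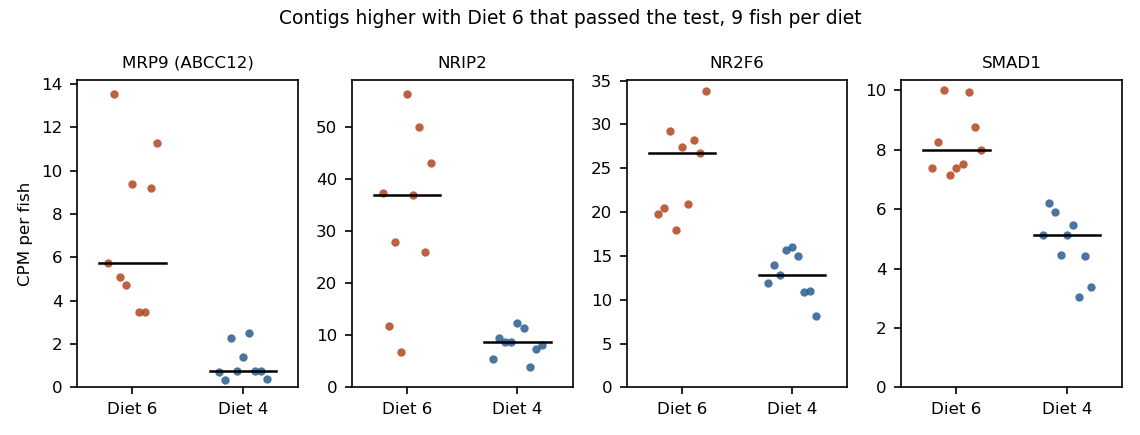
Level of 4 contigs that were higher with Diet 6 in each fish, in CPM on linear axes from 0, with Diet 6 at the left and Diet 4 at the right of each panel, points for the 9 fish of a diet and a line at the median. The groups did not overlap for MRP9 (multidrug resistance-associated protein 9), NR2F6 (nuclear receptor subfamily 2 group F member 6) and SMAD1, while for NRIP2 (nuclear receptor-interacting protein 2) 2 Diet 6 fish lay at 6.73 and 11.7 CPM, within the Diet 4 range.

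Enzymes were called in both directions. Lambda-crystallin homolog, in mammals a dehydrogenase of the uronate cycle, lay at 211 to 477 CPM with Diet 6 (median 378), against 69.6 to 264 CPM with Diet 4 (median 163). It was 2.25-fold higher with Diet 6, with 7 Diet 6 fish above every Diet 4 fish (log2 fold change 1.17, SE 0.212, edgeR adjusted p = 0.0194). Kynurenine/alpha-aminoadipate aminotransferase, a mitochondrial enzyme of tryptophan and lysine breakdown, lay at 18.1 to 31.3 CPM with Diet 6 (median 23.8), against 31.0 to 41.3 CPM with Diet 4 (median 36.7). It was the only member called among 18 of the one-carbon, creatine and amino acid list, and 8 of 9 Diet 6 fish were below every Diet 4 fish (log2 fold change -0.64, SE 0.108, edgeR adjusted p = 0.0134). By library totals alone its log2 fold change was -0.37 (edgeR adjusted p = 0.0439), which is under the 1.5-fold cutoff.

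Methyltransferase-like protein 24 lay at 4.29 to 12.5 CPM with Diet 6 (median 7.36), against 1.24 to 4.47 CPM with Diet 4 (median 3.04), and 8 Diet 6 fish were above every Diet 4 fish (log2 fold change 1.44, SE 0.264, edgeR adjusted p = 0.0194). Superkiller viralicidic activity 2-like 2, an RNA helicase of the nuclear exosome pathway, lay at 48.9 to 153 CPM with Diet 6 (median 100.0), against 38.1 to 83.5 CPM with Diet 4 (median 55.7), with a log2 fold change of 0.85 (SE 0.176, edgeR adjusted p = 0.0483). Peptidyl-prolyl cis-trans isomerase FKBP1A-like, named for the protein that binds the drug FK506, lay at 56.8 to 98.2 CPM with Diet 6 (median 80.1), against 47 to 64 CPM with Diet 4 (median 50.8). Its log2 fold change of 0.59 sat just above the fold cutoff (SE 0.108, edgeR adjusted p = 0.0194), and it fell under the cutoff in most alternatives, for example at 0.57 with DESeq2. Keratinocyte-associated protein 3 lay at 1.39 to 4.13 CPM with Diet 6 (median 3.25), against 0.216 to 2.07 CPM with Diet 4 (median 0.86), with a log2 fold change of 1.61 (SE 0.335, edgeR adjusted p = 0.0491).

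Pleckstrin homology domain-containing family A member 6 isoform X3 lay at 224 to 298 CPM with Diet 6 (median 257), against 272 to 484 CPM with Diet 4 (median 378), with a log2 fold change of -0.59 (SE 0.105, edgeR adjusted p = 0.017), or -0.32 by library totals (edgeR adjusted p = 0.0747). The contig of isoform X1 of the same protein had medians of 262 CPM with Diet 6 and 400.2 CPM with Diet 4 (log2 fold change -0.65, adjusted p = 0.0725). The contig of isoform X2 had a log2 fold change of -1.44 (SE 0.588, edgeR adjusted p = 0.444). The X1 and X2 contigs were chosen after their values were seen, and reads can be split between the isoforms. The contig named putative leucine-rich repeat-containing protein DDB_G0290503 isoform X1 lay at 106 to 378 CPM with Diet 6 (median 203), against 221 to 718 CPM with Diet 4 (median 495), with a log2 fold change of -1.24 (SE 0.259, edgeR adjusted p = 0.0491). Of the 3 called contigs without a name, GAZY01130989.1 (log2 fold change 0.59, edgeR adjusted p = 0.0431) and GAZY01151334.1 (log2 fold change 0.67, adjusted p = 0.0491) were higher with Diet 6. The third, GAZY01170870.1, was lower (log2 fold change -0.92, adjusted p = 0.0431).

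**Figure D3:**
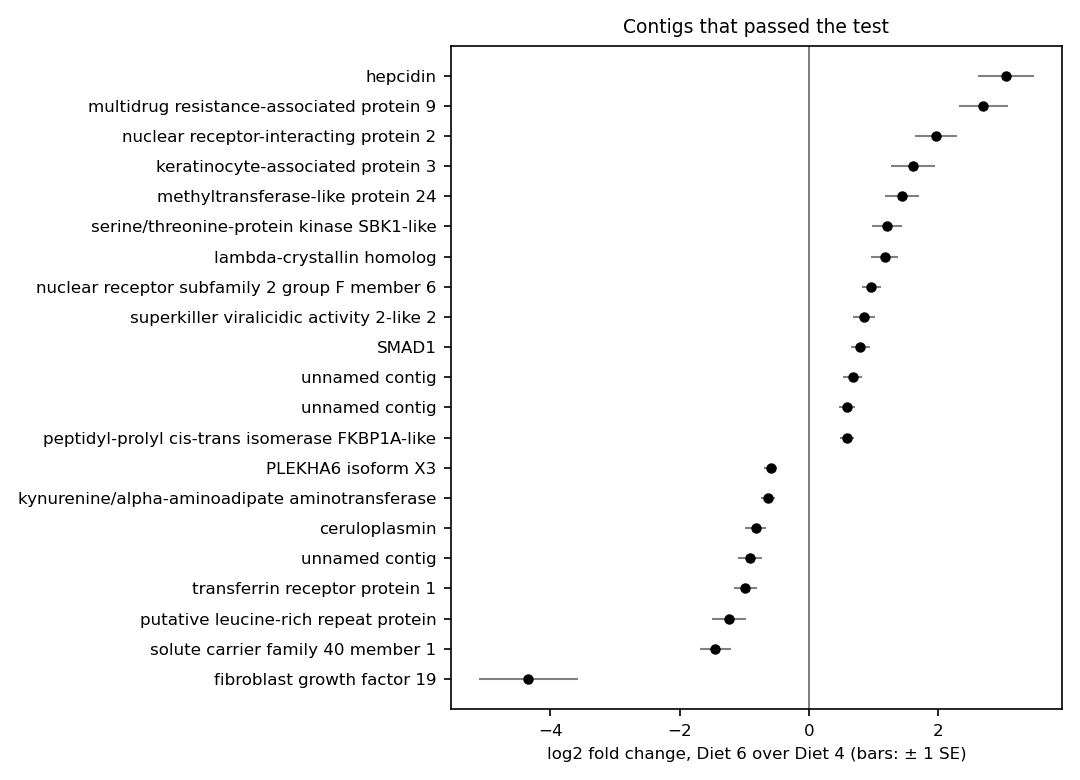
Log2 fold change of Diet 6 over Diet 4 for the 21 called contigs, with points for the edgeR estimate and bars for 1 standard error on either side. The 13 higher contigs lay between 0.59 for FKBP1A-like and 3.05 for hepcidin, and fibroblast growth factor 19 lay apart from the other 7 lower contigs at -4.34.

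Alternatives of 2 kinds bear on these calls. When each fish was left out in turn, 10 of the 21 contigs passed in every fit, namely hepcidin, ferroportin, transferrin receptor protein 1, fibroblast growth factor 19, multidrug resistance-associated protein 9, nuclear receptor-interacting protein 2, nuclear receptor subfamily 2 group F member 6, lambda-crystallin homolog, methyltransferase-like protein 24 and kynurenine/alpha-aminoadipate aminotransferase. When the counts were summed per T tag, so that 3 sums were compared with 3, edgeR called 0 contigs, with 676 at an unadjusted p under 0.05, and the log2 fold changes of hepcidin and ferroportin were 2.97 and -1.54 (edgeR adjusted p = 0.253 each). Without the 3 fish of T1 edgeR called 0 contigs as well, with 567 at an unadjusted p under 0.05, and the log2 fold change of hepcidin was 2.64 (edgeR adjusted p = 0.0568).

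The levels in the other 4 diets, which were not used in the test, are given as a description. The mean of Diet 6 was beyond the means of all 5 other diets for 20 of the 21 called contigs, against 36.7% of all contigs tested, and the mean of Diet 4 was so for 8 of them, against 26.2%. The same Diet 6 and Diet 4 values served for the calls, which favours extreme means in these 2 diets, so the shares are not a like comparison. Mean log2 CPM with Diet 1, the fish meal control, was nearer to Diet 4 than to Diet 6 for 20 of the 21, the exception being the unnamed GAZY01170870.1. The share of all contigs tested for which this holds was not computed. Of the 21, the 18 named ones come from lists that the study had called against Diet 1. The study called more contigs for Diet 6 than for Diet 4 there, which favours a Diet 1 mean nearer to Diet 4. Hepcidin averaged 684 ± 242 CPM with Diet 6 and 82.9 ± 70.2 CPM with Diet 4. It averaged 69.5 ± 51.7, 25.6 ± 48.4, 106 ± 72.6 and 38.3 ± 47.1 CPM with Diets 1, 2, 3 and 5 (SD, n = 9, and n = 8 for Diet 5). The study reported hepcidin as higher with the all-plant diet than with the fish meal control, by sequencing and by quantitative PCR. The hepcidin means given here run the other way for those diets, with wide SDs. That comparison and the cause of the disagreement were not tested. Ferroportin averaged 1020 ± 434 CPM with Diet 6 and 2794 ± 696 CPM with Diet 4, and 2919 ± 598, 4910 ± 1559, 2663 ± 1006 and 5497 ± 2724 CPM with Diets 1, 2, 3 and 5. Transferrin receptor protein 1 averaged 115 ± 29.3 CPM with Diet 6 and 228 ± 50.5 CPM with Diet 4, and its means were between 212 and 283 CPM with the other diets.

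For some called contigs Diet 5 was the nearest to Diet 6. Fibroblast growth factor 19 averaged 0.222 ± 0.208 CPM with Diet 6 and 0.258 ± 0.384 CPM with Diet 5, and it averaged 3.37, 9.86 and 13.9 CPM with Diets 1, 2 and 3. Pleckstrin homology domain-containing family A member 6 isoform X3 was the exception to the count above, with 259.8 ± 25.2 CPM with Diet 6 and 239.8 ± 75.8 CPM with Diet 5. Multidrug resistance-associated protein 9 averaged 7.33 ± 3.63 CPM with Diet 6 and 5.11 ± 5.07 CPM with Diet 5, against 1.08 ± 1.01 CPM with Diet 1 and 1.11 ± 0.788 CPM with Diet 4.

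**Figure D4:**
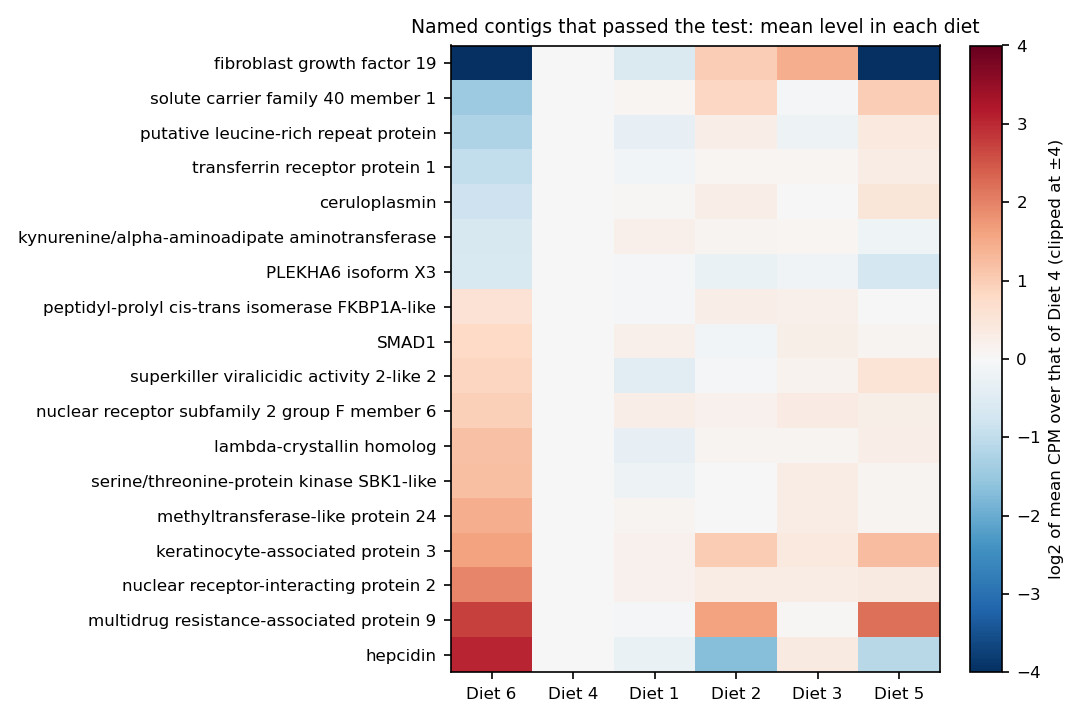
Mean level of the 18 named called contigs in each diet, as the log2 of the mean CPM over that of Diet 4, with Diet 6 in the leftmost column and Diet 4, at 0, beside it, and with colours clipped at 4 on either side. Hepcidin, at 684 CPM with Diet 6, has its highest mean there, and fibroblast growth factor 19 is low with Diets 6 and 5.

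Genes were also described by 20 lists with 235 places in all, drawn from the study's named contigs. An unadjusted p under 0.05 was met by 918 (9.22%) of all contigs tested, 549 (5.51%) higher and 369 (3.71%) lower, and by 240 (24.7%) of the 970 named contigs, 122 (12.6%) higher and 118 (12.2%) lower, and the counts of list members at that threshold are to be read against these shares. Counts of edgeR calls in a list are those with TMM factors over the 18 libraries, and other edgeR fits called members of some lists in which that fit called 0. By library totals it called 2 of the glutathione list, 2 of the pentose phosphate list, 3 of the immune list and 1 each of the gluconeogenesis, lipolysis and respiratory chain lists and of the blood and vessel markers. The complement and other plasma proteins list leaned furthest to lower levels with Diet 6. Of its 18 members, all tested, 0 were called by edgeR and 9 by DESeq2. Of these members 15 were lower and 3 higher, with 14 of the lower and 2 of the higher ones at an unadjusted p under 0.05. With all diets in 1 fit edgeR called 8, by library totals 4, and with the size factors of DESeq2 1. Its median log2 fold change was -0.71, against 0.01 over all contigs tested, and by library totals it was -0.44, against 0.27. The share of counts in the 20 most abundant contigs, of which 19 were lower with Diet 6 by the TMM scale and 16 by library totals, moved with this list, and its part in the result was not tested.

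Single plasma proteins came near the threshold without passing it. Complement factor H-related protein 4-like lay at 1.92 to 26.7 CPM with Diet 6 (median 11), against 11.2 to 70.2 CPM with Diet 4 (median 55.9), with a log2 fold change of -1.86 (SE 0.401, edgeR adjusted p = 0.0515). Complement C5, the source of the membrane attack complex, lay at 3359 to 7295 CPM with Diet 6 (median 5006), against 6375 to 8713 CPM with Diet 4 (median 7519), with a log2 fold change of -0.60 (adjusted p = 0.085). Alpha-2-HS-glycoprotein-like, named for fetuin-A, had medians of 12294 CPM with Diet 6 and 23954 CPM with Diet 4 (log2 fold change -0.93, adjusted p = 0.085), and alpha-1-acid glycoprotein 1-like, a plasma carrier protein, had medians of 109.9 CPM with Diet 6 and 207 CPM with Diet 4 (log2 fold change -1.15, adjusted p = 0.0796). The members that were higher with Diet 6 were clusterin, alpha-2-macroglobulin-like isoform X1 and pentraxin-related protein PTX3. Clusterin, a secreted chaperone, lay at 61.0 to 709 CPM with Diet 6 (median 286), against 4.30 to 228 CPM with Diet 4 (median 43.3), and all 9 Diet 6 fish were above the Diet 4 median (log2 fold change 2.28, SE 0.595, adjusted p = 0.141). Apart from clusterin, which the rule named, these plasma proteins were chosen after their values were seen.

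The list of hepatocyte markers, checked to see that the tissue is liver, held ceruloplasmin as its only called member, and all 8 markers were lower with Diet 6 (median log2 fold change -0.55), although by library totals 6 of the 8 were lower (median -0.29). DESeq2 called 3 of the 8 markers, as did edgeR with all diets in 1 fit. Their summed level lay at 16204 to 39758 CPM with Diet 6 (median 23316), against 28186 to 58820 CPM with Diet 4 (median 40462), and none was at 0 counts in any fish. Alpha-2-HS-glycoprotein-like makes up most of this sum. The bile salt export pump-like contig, a transporter of the hepatocyte membrane, had medians of 197 CPM with Diet 6 and 210.2 CPM with Diet 4 (log2 fold change -0.13, edgeR adjusted p = 0.89), and the glucose transporter solute carrier family 2, facilitated glucose transporter member 2 had medians of 995 and 1009 CPM with Diets 6 and 4 (log2 fold change -0.15, adjusted p = 0.903). Both were chosen after their values were seen.

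For glutathione synthesis and use, 0 of 13 members were called by edgeR and 1 by DESeq2, and 9 were higher and 4 lower (median log2 fold change 0.21). An unadjusted p under 0.05 was met by 5 of the higher ones and 1 of the lower ones. The regulatory subunit of glutamate--cysteine ligase, which sets the rate of glutathione synthesis together with the catalytic subunit, lay at 65.7 to 179.9 CPM with Diet 6 (median 112), against 33.7 to 104 CPM with Diet 4 (median 55.3). All 9 Diet 6 fish were above the Diet 4 median, and the log2 fold change was 0.91 (SE 0.204, edgeR adjusted p = 0.067). DESeq2 called it (adjusted p = 0.0019), as did edgeR by library totals (adjusted p = 0.018). The log2 fold change was 0.30 for the catalytic subunit (adjusted p = 0.754), 0.53 for glutathione synthetase (adjusted p = 0.39) and 0.48 for glutathione reductase, mitochondrial isoform X2 (adjusted p = 0.239). These last 3 contigs were chosen after their values were seen. In the pentose phosphate and cytosolic NADPH list, 0 of 8 members were called by edgeR with TMM factors or by DESeq2 and 3 had an unadjusted p under 0.05, and 6-phosphogluconate dehydrogenase, which yields NADPH, had the largest log2 fold change at 0.68 (adjusted p = 0.636).

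Fatty acid and sterol synthesis leaned lower with Diet 6, with 15 of 19 members lower, 0 called by edgeR and 1 by DESeq2 (median log2 fold change -0.38, and -0.12 by library totals). At an unadjusted p under 0.05, 7 were lower and 1 higher. Sterol enzymes of the list, chosen after their values were seen, included 3-hydroxy-3-methylglutaryl-Coenzyme A reductase, the rate-limiting enzyme of cholesterol synthesis, with a log2 fold change of -0.89 (edgeR adjusted p = 0.317), and emopamil-binding protein-like, named for a sterol isomerase, with -0.75 (adjusted p = 0.0826). Fatty acid synthase, also chosen so, varied widely between fish, from 52.6 to 1111 CPM with Diet 6 (median 92.5) and from 47.6 to 781 CPM with Diet 4 (median 190.5), with a log2 fold change of -0.38 (edgeR adjusted p = 0.939). Acetyl-CoA carboxylase 1 isoform X1 had the largest log2 fold change of the list at -1.05, with medians of only 0.476 and 0.718 CPM with Diets 6 and 4 (adjusted p = 0.755).

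In the respiratory chain and inner mitochondrial membrane list, 12 of 15 members were lower with Diet 6, 9 of them at an unadjusted p under 0.05, but 0 were called by edgeR and 2 by DESeq2 (median log2 fold change -0.43, and -0.17 by library totals). Of the 15, 5 are encoded by the mitochondrial genome, and these took 4.74 ± 1.11% of all counts with Diet 6 and 5.81 ± 1.07% with Diet 4 (SD, n = 9 each, exact permutation p = 0.0372, adjusted p = 0.0745), whose part in the list's lean was not tested. Magnesium transporter MRS2 homolog, which carries magnesium into mitochondria, had medians of 1.67 CPM with Diet 6 and 5.14 CPM with Diet 4 (log2 fold change -1.49, SE 0.355, edgeR adjusted p = 0.0887). In the gluconeogenesis, glycolysis and glycogen list, 8 of 10 members were lower, 0 were called by edgeR and 1 by DESeq2. At an unadjusted p under 0.05, 3 were lower and 1 was higher. Its median of -0.17 turned to 0.08 by library totals, against 0.01 and 0.27 over all contigs tested. Fructose-1,6-bisphosphatase 1-like, an enzyme of gluconeogenesis chosen after its values were seen, was below the Diet 4 median in all 9 Diet 6 fish (log2 fold change -0.83, adjusted p = 0.246), and PFKFB3 (isoform X3), whose product makes an activator of glycolysis, was above it in 8 of 9 (log2 fold change 1.63, adjusted p = 0.226).

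The immune cells and signalling list had 19 of 27 members higher and 8 lower, with 0 called by edgeR, 7 at an unadjusted p under 0.05 and 2 called by DESeq2 (median log2 fold change 0.22, and 0.48 by library totals). C-type lectin domain family 4 member E-like, named for a receptor of macrophages, went the other way, with medians of 150.2 CPM with Diet 6 and 425 CPM with Diet 4 (log2 fold change -1.17, edgeR adjusted p = 0.158). Lysozyme C, an antibacterial enzyme and the most abundant named contig, had medians of 22361 CPM with Diet 6 and 37021 CPM with Diet 4, with all 9 Diet 6 fish below the Diet 4 median (log2 fold change -0.61, adjusted p = 0.078). It was chosen after its values were seen.

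The other lists stayed closer to the median of all contigs or had a median whose sign turned with the scaling. The median of all contigs moved as well, from 0.01 to 0.27 by library totals. The medians of the lipolysis, cell cycle and growth factor lists were therefore below it on both scales. In lipolysis and fatty acid oxidation, 0 of 11 members were called by edgeR, 4 had an unadjusted p under 0.05 and 1 was called by DESeq2 (median -0.14, and 0.13 by library totals), and patatin-like phospholipase domain-containing protein 2 isoform X2, a lipase of lipid droplets, had the largest log2 fold change at -0.98 (edgeR adjusted p = 0.473). In the cell cycle list, 0 of 20 were called by edgeR or DESeq2 and 1 had an unadjusted p under 0.05, with a median of -0.14 that turned to 0.14 by library totals. Kinetochore scaffold 1, which ties microtubules to chromosomes, had its largest log2 fold change at -0.64 (adjusted p = 0.685). In DNA replication, 0 of 8 were called by edgeR or DESeq2 and 0 had an unadjusted p under 0.05 (median 0.07). Its largest log2 fold change was 0.52, that of single-stranded DNA-binding protein, mitochondrial (adjusted p = 0.659). In ER folding and secretion, 12 of 13 members were tested, 0 were called by edgeR or DESeq2 and 2 had an unadjusted p under 0.05. Protein disulfide-isomerase, which forms disulfide bonds in secreted proteins, was below the Diet 4 median in all 9 Diet 6 fish (log2 fold change -0.45, adjusted p = 0.205). Besides fibroblast growth factor 19, none of the 20 growth factors and hormones was called by edgeR with TMM factors over the 18 libraries. By library totals edgeR called 4 of the list, and with all diets in 1 fit 2, while DESeq2 called 2. An unadjusted p under 0.05 was met by 12 of the list, 5 higher and 7 lower (median -0.18, and 0.08 by library totals).

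**Figure D5:**
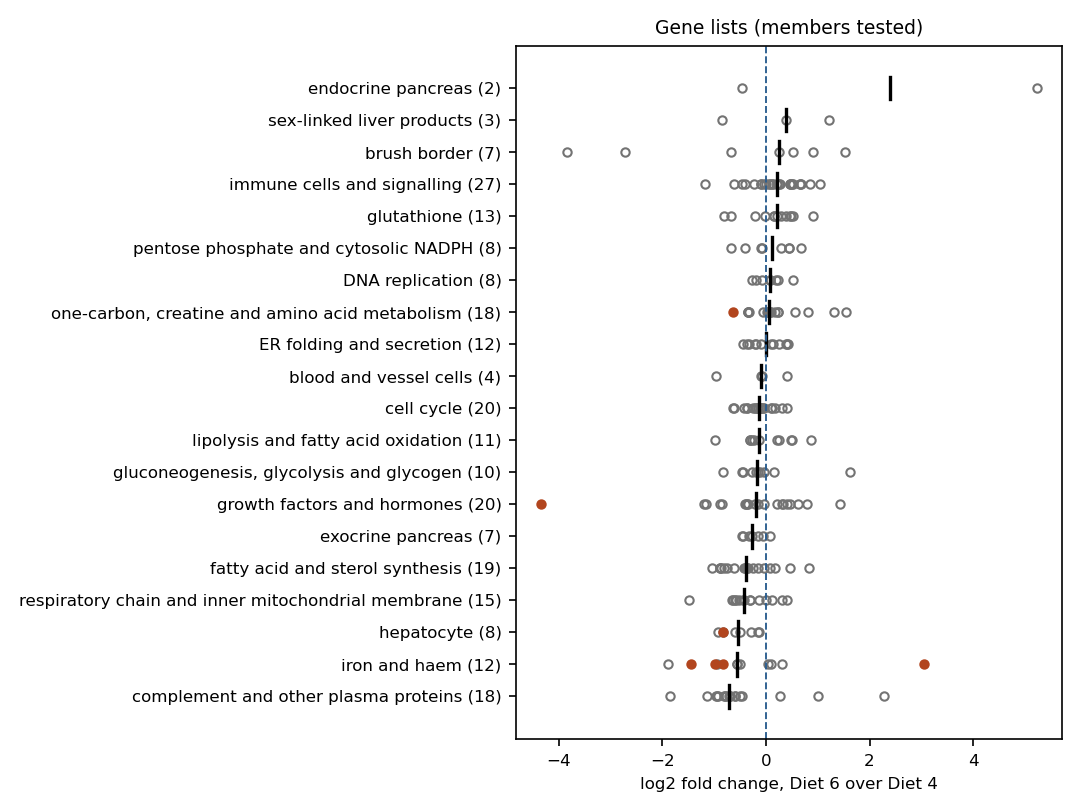
Log2 fold change of Diet 6 over Diet 4 for each tested member of the 20 lists, with the number tested in brackets, open circles for members that did not pass the test, filled circles for called members, a bar at the median of a list and a dashed line at the median of all contigs. Called members stand in the iron and haem, hepatocyte, growth factors and hormones, and one-carbon, creatine and amino acid lists, and plasma proteins have the lowest median at -0.71.

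Livers of fish often carry pancreatic tissue, so markers of other cells were followed beside these results. The exocrine score, the mean log2 CPM of 7 pancreatic markers, was 6.98 ± 3.75 with Diet 6 and 8.20 ± 2.88 with Diet 4 (SD, n = 9 each). The difference was smaller than either SD and did not pass (two-sided exact permutation test, p = 0.441, adjusted p = 0.441). The 7 markers summed to 85.5 to 68313 CPM with Diet 6 (median 22161), against 219 to 87939 CPM with Diet 4 (median 30478), and chymotrypsin A-like was at 0 counts in 1 Diet 6 fish. With the score as a covariate, edgeR called 17 contigs, 15 of them among the 21, and the 4 iron contigs kept their calls. The log2 fold changes of the 7 markers lay between -0.46 for elastase-1-like and 0.08 for class A basic helix-loop-helix protein 15, with pancreatic lipase at -0.16, chymotrypsin A-like at -0.44, carboxypeptidase B at -0.32, trypsin-2 isoform X4 at -0.28 and deoxyribonuclease I at -0.06, and all adjusted p-values were at least 0.958.

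Of the endocrine markers, insulin had 150 counts with Diet 6, of which 148 were in 1 fish (Diet 6 replicate 5), and 2 counts with Diet 4, and homeobox protein Nkx-6.1 had medians of 0.238 and 0.293 CPM with Diets 6 and 4. Their fitted log2 fold changes, which at such counts depend on the prior count, were 5.24 and -0.46 (edgeR adjusted p = 0.25 and 0.951). The sex of the fish is not given. Vitellogenin B, the egg yolk precursor of females, had medians of 10.3 CPM with Diet 6 and 3.38 CPM with Diet 4 (log2 fold change 1.21, adjusted p = 0.585), vitelline membrane outer layer protein 1 homolog had medians of 7.86 and 8.08 CPM (log2 fold change 0.38, adjusted p = 0.966), and male-specific protein had medians of 581 and 1144 CPM (log2 fold change -0.84, adjusted p = 0.38), with 8 of 9 Diet 6 fish below the Diet 4 median. The 3 markers summed to 283 to 1531 CPM with Diet 6 (median 595) and 605 to 1555 CPM with Diet 4 (median 1175). By the medians most of this sum was male-specific protein, and it mixes a female with a male product, so it is no measure of sex. The part of sex in the results was not tested.

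Markers of blood and vessel cells summed to 52.3 to 96.4 CPM with Diet 6 (median 64.5), against 39.0 to 165 CPM with Diet 4 (median 64.4). Hemoglobin subunit beta-A-like, of red cells, had medians of 13.2 and 13.6 CPM with Diets 6 and 4 (log2 fold change -0.97, edgeR adjusted p = 0.565), and 0 of the 4 markers were called by edgeR with TMM factors or by DESeq2, with 1 at an unadjusted p under 0.05. Brush border markers summed to 50.3 to 128 CPM with Diet 6 (median 101.6), against 37.9 to 135 CPM with Diet 4 (median 78.6), with 0 of 7 called by edgeR or DESeq2 and 3 at an unadjusted p under 0.05. Claudin-15-like isoform X1, a tight junction protein of the intestine, was at 0 counts in 7 Diet 6 fish and 5 Diet 4 fish and held 12 counts with Diet 6 and 107 with Diet 4 (fitted log2 fold change -3.83, adjusted p = 0.281).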

How the data were processed

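Liver RNA of 54 fish was sequenced after poly(A) selection with a strand-specific kit. The deposited values are estimated counts, which the authors made by trimming the reads, aligning them by Bowtie2 against 20914 curated contigs and assigning them by eXpress. They are whole numbers and not normalized. The submitters' processing notes name Trim Galore 0.6.5, cutadapt 2.7, Bowtie2 2.3.4.1, eXpress 1.5.1 and DESeq2 1.24.0. How eXpress divides reads between similar contigs affects paralogs and isoforms. Groups were taken from the labels.

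The 9 Diet 6 and 9 Diet 4 libraries were compared in edgeR 4.0.16 (R 4.3.3) by its quasi-likelihood F-test, with TMM factors over the 18 libraries, for the 9957 contigs whose mean count reached 5. Of the 10957 contigs not tested, 4348 were at 0 in all 18 libraries. Standard errors were taken as the absolute log2 fold change over the root of F. Displayed CPM use TMM factors over 53 libraries, without Diet 5 replicate 7 (755 counts), and log2 CPM a prior count of 0.5. Single values were compared by exact permutation over 48620 splits, with a smallest p of 4.11e-05. Fish were the replicates, and where fish share a tank the p-values may be too small.

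Alternatives were DESeq2 1.42.0, its size factors in edgeR, other filters on low counts, 1 fit of all diets, a replicate block, L tags of the file labels as a covariate, sums per T tag, limma 3.58.1 with voom, a robust fit, the exocrine score as a covariate, other cutoffs and leaving out each fish. Library totals without TMM factors, leaving out the 3 fish of each T tag, and the tests of library composition were added after the data were seen. Contigs named were the 12 largest called changes in each direction with at least 10 counts in 5 fish, the 6 smallest p-values, called members of each list or otherwise its largest change, and the markers of pancreas and sex. Members and lists were chosen with earlier results of these data known. The edgeR fit was tested on simulated counts. These held independent fish and no difference in composition between the diets, so they do not bear on shared tanks or on the scaling.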

Additional observations from a re-analysis of the deposited data

Results flagged for a closer look

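Of 46 groups of 9 fish looked at for a single fish far from the others, 1 had such a fish, and chance alone gives about 1 in 20. It was transferrin receptor protein 1 with Diet 6, where the lowest fish had a log2 CPM of 5.72 and the nearest of the others 6.58, a gap of 0.561 of the whole range, which is past Dixon's critical value for 9 samples. This fish, Diet 6 replicate 7, had 52.7 CPM, and it also had the lowest hepcidin (223 CPM) and ferroportin (382 CPM) of the 9 Diet 6 fish. Its library stood apart in other measures, with the largest total (16228574 counts), the most contigs detected (13425) and 2.26% of counts in contigs of the mitochondrial genome, against 4.59 to 6.59% in the other Diet 6 fish. The contig passed in every fit that left out 1 fish, with log2 fold changes of -1.06 to -0.90.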

How the results depend on the processing

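The number of called contigs was 21, and it stayed within 1.5 times of that with the size factors of DESeq2 (26), edgeR's own filter on low counts (26), 5 or more counts required in each library (29), the L tag as a covariate (24), limma with voom and T tags as blocks (23), a robust fit (25), the exocrine score as a covariate (17) and no fold cutoff (22). It was 72 with DESeq2 (36 higher and 36 lower), 11 with no filter on low counts, 43 with all diets in 1 fit, 336 at an unadjusted p with the fold cutoff, 255 with library totals (all but 10 of them higher, against 13 of 21), and 0 with counts summed per T tag. Without the 3 fish of a T tag it was 5 (T16), 24 (T21), 2 (T3), 4 (T14), 47 (T18) and 0 (T1, with 567 at an unadjusted p under 0.05). Without 1 fish it was 10 to 48. It was 11, 10, 48 and 12 without Diet 6 replicates 1, 3, 4 and 5, and 13 without Diet 4 replicate 1, 3 or 7. For the mean library total, Diet 6 against Diet 4, the difference of 2046440 counts was 1599090 to 2902890 without 1 fish. No called contig changed direction in any alternative. Over the fits without 1 fish, these contigs kept their call 257 times and lost it 121 times, and over the other alternatives 231 and 164 times. The cause of these changes was not tested. Low depth limits fibroblast growth factor 19, insulin and the claudin, which rest on few counts.

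Replicate numbers were not used to pair the fish in the main test, although fish of the same number shared an L tag in both diets. The deviations of same-numbered fish had correlations of -0.165 to 0.478, of which 2 of 9 were over 0.1, and 4 of 9 fish were best correlated with their own number. With the replicate number as a block 3 contigs passed, all among the 21. Of these, 2 were in the iron and haem list and 0 in the hepatocyte list, so that ceruloplasmin, a member of both, lost its call.

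Directions that turned belong to contigs that passed in no fit here. DESeq2 gave 0.20 for acetyl-CoA carboxylase 1 isoform X1 and -0.49 for insulin. Library totals gave 0.17 for pancreatic lipase, 0.025 for carboxypeptidase B, 0.059 for trypsin-2 isoform X4 and 0.28 for deoxyribonuclease I, which was 0.14 with the exocrine covariate. Without T16, T3 and T14, pancreatic lipase was 0.12, 0.0083 and 0.72 and deoxyribonuclease I 0.18, 0.11 and 0.73. Without T14, elastase-1-like was 0.19, carboxypeptidase B 0.54 and trypsin-2 isoform X4 0.34. Without T1, chymotrypsin A-like was 0.75. For class A basic helix-loop-helix protein 15 the replicate block gave -0.56, voom -0.26, and leaving out T21 and T18 -0.56 and -0.19. For vitelline membrane outer layer protein 1 homolog the replicate block gave -0.35, voom -1.03, and leaving out T3 and T18 -0.56 and -0.023. Without 1 fish, ranges were -1.69 to 0.16 for acetyl-CoA carboxylase 1 isoform X1, -0.57 to 0.18 for pancreatic lipase, -1.76 to 1.14 for chymotrypsin A-like, -0.67 to 0.12 for carboxypeptidase B, -0.65 to 0.043 for trypsin-2 isoform X4, -0.50 to 0.28 for deoxyribonuclease I, -0.25 to 0.37 for class A basic helix-loop-helix protein 15, -0.99 to 0.21 for homeobox protein Nkx-6.1 and -0.93 to 1.5 for vitelline membrane outer layer protein 1 homolog.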
